A study of Mustela putorius furo with 8 samples.

Results

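The cells described here were wild-type (WT) ferret pancreatic ductal cells from clusters with high SOX2, measured by droplet single-cell RNA-seq in ductal epithelium grown in culture. They were chosen by the deposited cell annotation and by the measured level of SOX2: the class had to be ductal, the cluster a WT cluster, and SOX2 in the summed cells of the cluster at least 10 CPM. CPM are the unique molecular identifiers (UMIs) of a gene, summed over the cells named and scaled to a common total of all UMIs. This gave 7314 cells in 12 clusters, which is 33.9% of the 21600 retained WT cells and part of 32945 retained cells in all. SOX2 itself therefore chose the clusters, and the clusters had been made from all genes of the same cells, so every level and difference below is a description without a test. Higher, lower, rose and fell stand for genes at least 2-fold apart in CPM + 1. Of the 41 WT clusters, 29 reached the SOX2 limit and 12 did not. Within the 12 clusters the level of SOX2 ran from 73.1 CPM in cluster 39 to 159 CPM in cluster 20. Just inside the limit among all WT clusters was cluster 36 of the class centroacinar with 50.6 CPM. Just outside it was cluster 38, also centroacinar, with 4.87 CPM. That value rests on 1 SOX2 UMI in 60 cells, so its distance from 10 CPM is uncertain. The highest ductal cluster below the limit was cluster 33 with 2.77 CPM from 9 UMIs.

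The study compared WT cultures with cystic fibrosis (CF) cultures of genotype CFTR KO/KO, and the CF cells are not described here. Ductal cells came from the pancreas of newborn WT ferrets 1 to 3 days of age, were grown as a monolayer to passage 10, and were then polarized at an air-liquid interface for 2, 5, 7 or 9 days without any other treatment. The cells of several animals were pooled, each day was a separate library, and the annotation does not give the animal of a cell. Each group was thus 1 library, so day and library cannot be told apart.

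SOX2 is a transcription factor of the developing foregut, where it marks the anterior epithelium that gives rise to oesophagus, trachea and stomach, and it also sustains stem and basal cells of stratified epithelia. The pancreas arises from more posterior foregut, and its ducts are usually described by keratins, EPCAM, CDH1, SOX9 and CFTR. Epithelial cells that spread or lose polarity often make fibronectin, laminins, integrins and contractile proteins, a set of genes that transforming growth factor β (TGF-β) is known to induce.

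The keratins KRT19 and KRT5 were abundant in the sum of these cells on every day. Of the 4 markers given for the clusters (SOX2, WFDC2, ENPP3 and TCIM) all but SOX2 were lower than in other SOX2-high cells after day 2. KRT19, a keratin of duct epithelium, stood at 5049, 4138, 5375 and 3847 CPM on days 2, 5, 7 and 9. The basal keratin KRT5 stood at 1265, 1325, 1833 and 1282 CPM, close to constant over the 4 days. Of the 6 genes by which the study named ductal cells (ADIRF, CAPG, S100A10, KRT5, KRT15 and KRT19), only KRT15 appeared among the 10 leading genes of any of the 12 clusters against the other WT cells, in clusters 9 and 37. After day 2 WFDC2, ENPP3 and TCIM were higher in the WT cells of other classes that also had high SOX2. WFDC2, a secreted protease inhibitor of airway and other surface epithelia, was at 142, 102, 121 and 325 CPM here and at 154, 4780.0, 3373 and 20789 CPM there. The ectonucleotidase ENPP3 was at 30, 9.28, 14.9 and 15.6 CPM here against 192, 811, 618 and 778 CPM. TCIM, a small regulator of WNT signalling, was at 32.9, 10.0, 18.3 and 14.8 CPM here against 48.4, 183, 202 and 314 CPM. The ductal cells were the lower set for all 3 genes after day 2, and SOX2-high is used below in the sense of the cluster rule only.

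SOX2 changed little with time. Its level was 129, 117, 116 and 114 CPM on days 2, 5, 7 and 9. After every cell was thinned to 3000 UMIs, a SOX2 UMI was found in 30.6%, 26.2%, 28.1% and 24.2% of the cells (79.3%, 62.3%, 67.9% and 60.3% without thinning). In the SOX2-low ductal WT cells the thinned share was 0.825%, 0.127%, 0.0883% and 0.155%. Their clusters were set apart by low SOX2, so this low share follows from the rule. Free RNA was not measured separately. PAX6, a transcription factor of endocrine and eye development, had the opposite distribution, at 6.13, 1.79, 2.44 and 1.06 CPM in the SOX2-high and 113, 134, 110.2 and 80.2 CPM in the SOX2-low ductal cells. Both transcripts were found in the same thinned cell in 0.539%, 0.197% and 0.170% of the SOX2-high cells on days 2, 5 and 7 and in 0 of 801 on day 9. A count of 3 would be 0.375% of these 801 cells and the exact 95% upper limit is 0.459%, which limits thinned cells with both UMIs and not cells that express both genes. Without thinning both were found in 7.22%, 2%, 2.39% and 0.946% of the SOX2-high cells on days 2, 5, 7 and 9. A PAX6 UMI of any kind was then found in 8.44%, 2.18%, 3.46% and 1.42%. The 32 cells of cluster 39 were an exception, with SOX2 at 73.1 CPM, PAX6 at 78.6 CPM and a median of 26941 UMIs per cell against library medians of 14949 to 16862. Without thinning 59.4% of the cells of cluster 39 had both UMIs, followed by 9.07% in cluster 9 and 8.74% in cluster 6. The share of doublets among the cells of cluster 39 was not tested.

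The 4 WT libraries kept 4634 to 6224 cells and 82961927 to 114585136 UMIs each, and any pair of them had 6 to 14 cell barcodes in common. Library medians of mitochondrial UMIs ran from 6.63% to 10.7% per cell. In the SOX2-high ductal cells the mitochondrial median was 9.42%, 5.12%, 8.29% and 7.18% on days 2, 5, 7 and 9, and transcripts of ribosomal proteins took 21.0%, 12.6%, 14.1% and 13.6% of their UMIs. The median depth was 15207 UMIs per cell on day 2 and 12002 to 12431 later. The part of these shifts in the gene differences between days was not tested.

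The SOX2-high ductal cells became fewer with time in the retained WT cells. They numbered 3603 of 6224 on day 2, 1650 of 5326 on day 5, 1215 of 4634 on day 7 and 846 of 5416 on day 9. The shares were 57.9% (exact 95% interval 56.7 to 59.1), 31.0% (29.7 to 32.2), 26.2% (25 to 27.5) and 15.6% (14.7 to 16.6), where the intervals cover counting error only. As a share of the ductal class they fell from 80.9% on day 2 to 51.2%, 51.7% and 39.3%. The fall between days 5 and 7 depended on cell filters: with at most 10% mitochondrial UMIs and at least 3000 UMIs per cell the shares were 55.0%, 30.9%, 48.7% and 27.9%, so that day 7 then lay above day 5. The mitochondrial median on day 7 was 10.2% in SOX2-low ductal cells and 13.1% in the other SOX2-high cells.

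The day 2 cells and the later cells lay in different clusters. Clusters 4, 6, 9, 15, 35, 37 and 39 held 3648 cells, of which 3587 were from day 2, and clusters 2, 5, 14, 20 and 23 held 3666 cells, of which 16 were from day 2. Day 2 was spread over cluster 4 with 28.4% of its cells, cluster 6 with 25.2%, cluster 9 with 22.2% and cluster 15 with 18.1%. On day 5, cluster 2 held 41.1% and cluster 5 held 30.9% of the cells. Day 7 was led by cluster 14 with 47.7%, a cluster that took 579 of its 667 cells from that day, and day 9 by cluster 2 with 37.9% and cluster 23 with 24.3%. Since hardly any cluster spans day 2 and a later day, the change over time and the difference between clusters cannot be told apart. Clusters 20 and 35 had medians of 3397.5 and 1897.5 UMIs per cell, 21.0% and 11.7% of the library median, and held 644 cells together.

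**Figure D1:**
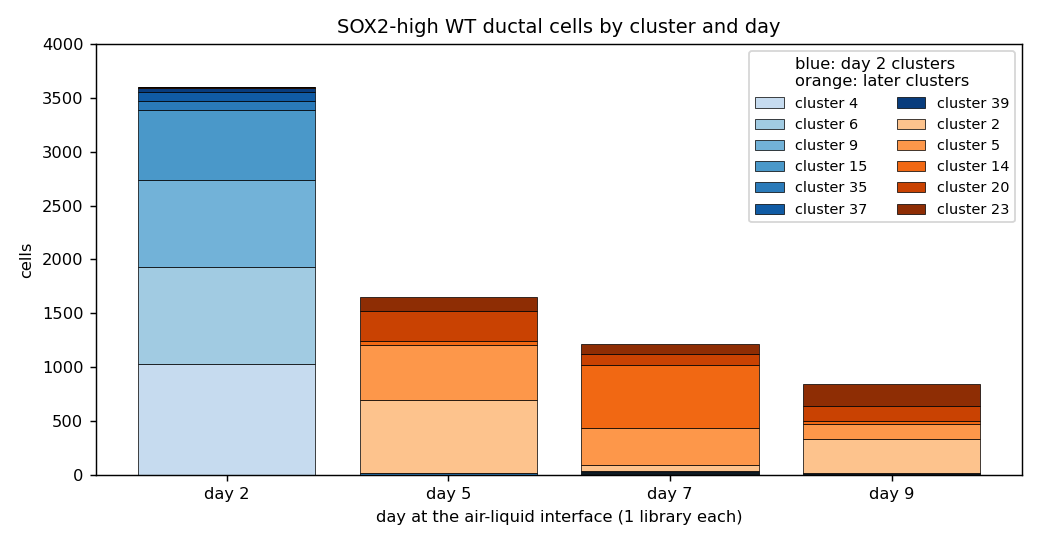
Number of SOX2-high WT ductal cells on each day at the air-liquid interface, 1 library per day, stacked by cluster (blue, clusters found mainly on day 2; orange, clusters found mainly later). The total falls from 3603 to 846 cells, and the day 2 clusters are almost absent afterwards.

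Among the day 2 clusters, cluster 6 carried the genes of DNA replication. MCM4, a subunit of the replicative helicase, was at 81.9 CPM in cluster 6 against 5.38 CPM in the other 11 clusters, and RRM2, which makes deoxynucleotides, at 134 against 11.1 CPM. The S phase list summed to 1144 CPM in cluster 6 and to 221 to 452 CPM in the other 11 clusters. G2 and M phase genes, those of division itself, were low in all 12 and summed to 158 CPM in cluster 6, the highest of them, and 31.4 to 109 CPM in the others, with the proliferation antigen MKI67 at 1.76 CPM. Cluster 4 was led by LOC101686814, the chemokine CCL20 (93.7 against 23.0 CPM), TMEM229A, SLC29A1 and the urokinase PLAU (185 against 79.0 CPM). NT5E, the ecto-5'-nucleotidase, stood at 121 against 48.6 CPM in cluster 9, whose other leading genes were LOC101674920, TNIP3, NEK10 and EMP1. Among the day 2 cells of the other large clusters CCL20 was at 77.8, 24.1 and 12.2 CPM in clusters 6, 9 and 15, PLAU at 120, 136 and 131 CPM in clusters 6, 9 and 15, and NT5E at 101, 106 and 89.7 CPM in clusters 4, 6 and 15. KRT5 was at 1937, 1770.3 and 931 CPM among the day 2 cells of clusters 4, 6 and 9, more than 2-fold lower in cluster 9 than in cluster 4.

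Cluster 15 stood apart from the other large day 2 clusters. Its KRT5 was 83.2 CPM among its day 2 cells. LOC101680039, an unnamed protein-coding locus of the ferret annotation, was at 8123 against 521 CPM, the lncRNA locus LOC101679224 at 929 against 69.2 CPM, the membrane glycoprotein PROM1 at 129 against 9.44 CPM and the mucosal chemokine CXCL17 at 177 against 14.8 CPM. The second values are over all other clusters of the SOX2-high ductal cells, the later ones included. Among day 2 cells CXCL17 was at 176 CPM in cluster 15, and at 119, 67.4 and 41.8 CPM in clusters 35, 37 and 9. WFDC2 was at 488 CPM among the day 2 cells of cluster 15 and 129 CPM among those of cluster 9. PROM1, CXCL17, LOC101679224 and CUNH15orf48, all among its 5 leading genes, also belong to the 10 genes named below as lowest in the SOX2-high ductal cells against other SOX2-high cells. Of the small day 2 clusters, cluster 37 had the retinaldehyde dehydrogenase ALDH1A3 at 219.9 CPM against 1.88 CPM elsewhere. The shallow cluster 35 was led by PI3, followed by IFIT3 and the interferon-induced ISG15. ISG15 was at 400.0 CPM in the 82 day 2 cells of cluster 35, against 4.59 to 15.2 CPM in the day 2 cells of clusters 4, 6, 9, 15 and 37, and at 1939 CPM over all its 114 cells, since those of later days held more. Cluster 39, with 32 cells all from day 2, also had ISG15 among its 10 leading genes against the other WT cells. The interferon response list summed to 5599 CPM in cluster 35, 742 CPM in cluster 39 and 293 to 465 CPM in the other clusters.

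The later clusters shared the matrix genes described next and differed in how much of them they held. Cluster 2 was led, against the other 11 clusters combined, by INHBA, a subunit of activin (158 against 9.42 CPM), ANKRD1, a mechanically responsive nuclear protein (457 against 38.9 CPM), fibronectin FN1 (1439 against 191 CPM) and the actin-binding TAGLN (1518 against 217 CPM). Cluster 5 was led in the same way by UPP1, tissue factor F3 (1161 against 335 CPM), the retinoic acid carrier CRABP2 (873 against 252 CPM), and MDK, but the set it was compared with holds the day 2 clusters. Among day 5 cells F3 was at 1311 CPM in cluster 2, 1090.2 CPM in cluster 5, 405 CPM in cluster 20 and 332 CPM in cluster 23. It thus set cluster 5 apart from clusters 20 and 23 but not from cluster 2. CRABP2 was at 1047, 1019, 939 and 880 CPM in clusters 20, 5, 23 and 2 and did not set cluster 5 apart from the others on that day. Lymphotoxin β, LTB, was at 547 against 77.9 CPM in cluster 14. Cluster 23 was led by LOC123390887 (2422 against 392 CPM), PRAP1 (667 against 108 CPM), the dipeptidase DPEP1, FMO2 and ENO2. The shallow cluster 20 was led by LOC101681179 and ribosomal RNA loci. FN1 was at 1927 CPM in cluster 20, above its level in cluster 2. The sets compared with clusters 2, 14, 20 and 23 also hold the day 2 clusters. Among day 9 cells DPEP1 was at 284 CPM in cluster 20 and 215 CPM in cluster 23. FMO2 was at 164 CPM in cluster 2 and 151 CPM in cluster 23. LOC123390887, PRAP1 and ENO2 were higher in cluster 23 than in clusters 2, 5 and 20, but less than 2-fold above cluster 20. ANKRD1 was at 572 CPM in cluster 2 and 380 CPM in cluster 5 on day 9.

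**Figure D2:**
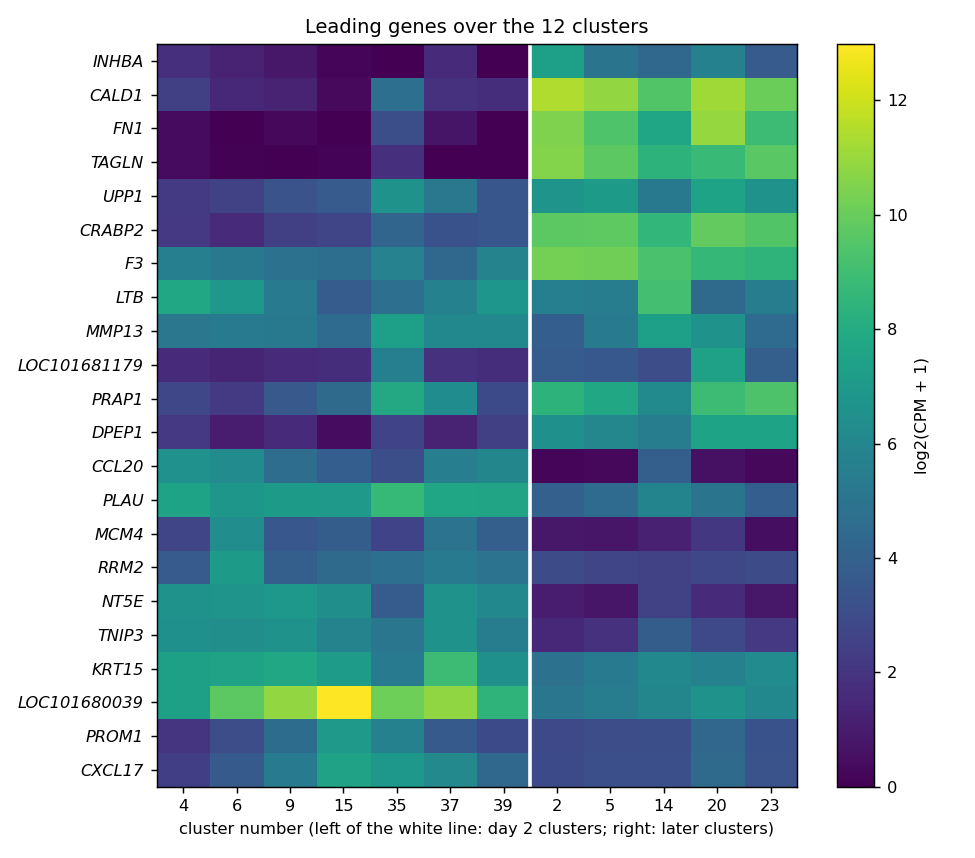
Heat map of log2(CPM + 1) of 22 genes, most of them leading genes, in the 12 clusters over all days, with the 7 day 2 clusters to the left of the white line and the 5 later clusters to the right. FN1, TAGLN, CALD1 and CRABP2 are high in every later cluster, MCM4 and RRM2 are highest in cluster 6, and PROM1 and CXCL17 in cluster 15, followed by cluster 35.

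Between day 2 and day 5 FN1, TAGLN, CALD1, SPARC and other genes of the extracellular matrix and of contractile proteins rose from levels near 0, and genes of the basement membrane that were already present on day 2 rose too. Counting genes of at least 10 CPM on either day, 1819 of 8239 (22.1%) were at least 2-fold apart, 15.2% higher and 6.86% lower on day 5. In contrast 1.22% differed 2-fold between days 5 and 7 (0.579% higher, 0.641% lower) and 1.95% between days 7 and 9 (1.23% higher, 0.72% lower). Between days 2 and 9 it was 21.3% (13.6% higher, 7.7% lower). The direction of the bulk of the genes depended on scaling: the median gene was 0.29 higher on day 5 on the log2 scale, and TMM scaling, which moves that median by -0.38, gave 709 genes higher and 972 lower where CPM gave 1254 and 565. The genes named from here on as rising or falling from day 2 to day 5 are the 15 largest rises and falls among the 674 and 238 genes of at least 50 CPM on either day that passed the 2-fold limit, a rule that was chosen after the values had been seen, and members of lists.

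FN1, the gene of fibronectin, gave 6 UMIs in 3603 cells on day 2, or 0.0976 CPM, and stood at 1185, 379 and 984 CPM on days 5, 7 and 9. The 3 later days were all far above day 2, with day 7 the lowest of them. The ratio of day 5 to day 2 was 12141 (exact 95% counting interval 5577 to 33087). TAGLN was at 0.114, 1119, 431 and 1359 CPM, and CALD1, which binds actin and myosin, at 2.28, 2471, 1061 and 1969 CPM. Both had the course of FN1, with a dip on day 7. For CALD1 the ratio of day 5 to day 2 was 1085 (919 to 1290.2). ANKRD1 was not detected on day 2 and reached 286, 65.3 and 385 CPM, at least 5868-fold higher on day 5 than the 3 UMIs that a count of 0 allows in the summed day 2 cells. The matricellular glycoprotein SPARC was at 2.21, 725, 477 and 686 CPM, and the secreted phosphoprotein SPP1, known from bone matrix and ducts, at 1.63, 539, 265 and 611 CPM. The pregnancy-associated protease PAPPA, CLEC3A, LAMA4, COL18A1 and BPGM were the others among the named rises, with ratios of 359, 200.3, 107, 59.1 and 63.4, together with LOC101679442. Clusterin, CLU, a secreted chaperone, was already at 138 CPM on day 2 and rose to 8462, 4854 and 9675 CPM.

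Within single clusters the day 7 dip of FN1 stayed under 2-fold. FN1 was at 1538, 1353 and 1258 CPM on days 5, 7 and 9 within cluster 2, where day 9 was the lowest. It was at 732, 587 and 654 CPM in cluster 5, 2148, 1176 and 2063 CPM in cluster 20 and 462, 277 and 551 CPM in cluster 23, lowest on day 7 in these 3. Cluster 14, which held 47.7% of the day 7 cells, was at 189 CPM on that day, below the other 4 later clusters. TAGLN was more than 2-fold lower on day 7 than on day 5 within cluster 20 (476, 85.0 and 589 CPM) and cluster 23 (677, 169 and 1140 CPM), and not within cluster 2 (1460.2, 1545 and 1629 CPM) or cluster 5 (789, 704 and 1286 CPM). The parts of the dip that lie within clusters and in the mix of clusters were not separated.

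An FN1 UMI was found in 6 of 3603, 1491 of 1650, 811 of 1215 and 759 of 846 cells on days 2, 5, 7 and 9. After thinning to 3000 UMIs the shares were 0.0567%, 80.3%, 46.1% and 73.3%. Of the cells with FN1 on days 5, 7 and 9, 99.9%, 100% and 100% had a KRT19 UMI, 85.2%, 86.2% and 84.6% a UMI of E-cadherin CDH1, and 63.6%, 67.9% and 61.4% an EPCAM UMI, without thinning. Cells without FN1 had KRT19 in 100%, 99.8% and 95.4%, CDH1 in 79.2%, 85.4% and 70.1% and EPCAM in 49.7%, 66.3% and 47.1%, at a median of 10320, 13033.5 and 9197 UMIs against 12218, 12058 and 12214 in the cells with FN1. No background of free RNA was set for these shares, so they describe the cells without sorting them. Genes that define fibroblasts were near 0: COL3A1 and THY1 had no UMI on any day, COL1A1 was at 0, 2.92, 0.227 and 0.705 CPM, and 8 such genes (COL1A1, COL1A2, COL3A1, PDGFRA, PDGFRB, DCN, LUM and THY1) summed to 1.74, 6.08, 3.01 and 2.73 CPM. Smooth muscle actin ACTA2 reached 3.72 CPM at most, the repressors of epithelial genes ZEB1 and ZEB2 0.283 and 2.31 CPM, and N-cadherin CDH2 6.88 CPM. SNAI2, also known as a driver of epithelial plasticity, was at 50.3, 184, 157 and 175 CPM, and vimentin VIM at 11, 116, 83.8 and 57.5 CPM.

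In the list of 24 fibroblast and mesenchymal genes, 8 reached 10 CPM, of which 7 rose 2-fold and 0 fell from day 2 to day 5, with a median log2 difference of 6.54 against 0.29 over all genes tested. FN1, SPARC, TAGLN, CALD1 and MYL9 reached that limit only on day 5, so this count was in part set by the limit. SNAI2 and VIM were above it on both days. MYL9, the light chain of non-muscle and smooth muscle myosin, was at 7.45, 321, 199 and 391 CPM.

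Laminins and integrins, the proteins that anchor an epithelium to its basement membrane, rose with them. Of 18 genes tested in this list 15 were at least 2-fold higher on day 5 and 0 lower, with a median of 2.59. LAMB1, LAMB2, ITGA3, ITGA5, COL4A1 and COL4A2 reached 10 CPM only on day 5, so that their direction was set by the limit. Of the 12 genes past the limit on both days 9 were higher and 0 lower. For this and all later counts of genes past the limit on both days or in both sets, no share over all such genes was computed. LAMA3 and LAMB3 encode chains of the laminin that hemidesmosomes bind. LAMA3 was at 51.7, 577, 243 and 553 CPM and LAMB3 at 153, 736, 493 and 739 CPM, both lowest on day 2 and second lowest on day 7. ITGB4, the integrin chain of hemidesmosomes, was at 380.0, 1540.2, 1194 and 1406 CPM while its partner ITGA6 was at 244, 237, 206 and 182 CPM and passed the 2-fold limit at no later day. ITGB6, the epithelial chain of the integrin that activates latent TGF-β, was at 85.4, 949, 666 and 805 CPM. ITGB1, the common chain of collagen, laminin and fibronectin receptors, was at 275, 1814, 939 and 1816 CPM, and the collagen IV chains COL4A1 and COL4A2 rose from 2.08 and 2.60 CPM to 47.8 and 33.0 CPM.

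Genes of TGF-β signalling and the ligand BMP2 rose, and the BMP target ID1 fell while ID2 and ID3 did not. In the list of BMP and TGF-β response genes 10 of 15 tested rose, 1 fell, and the median was 1.80. Of the 13 past the limit on both days 8 rose and 1 fell. The ligand TGFB1 was at 42.7, 373, 285 and 340.1 CPM, and TGFB2 at 20.8, 74.6, 61.2 and 64.6 CPM. BMP2 was at 53.0, 204, 244 and 237 CPM. PMEPA1, a feedback inhibitor induced by TGF-β, was at 78.3, 1298, 994 and 1233 CPM, and TGFBI, a matrix protein named for its induction by TGF-β, at 186, 1105, 671 and 951 CPM. The rise of TGFBI on day 5 was 5.96-fold (5.82 to 6.09). ID1, a direct target of BMP signalling, was at 738, 207, 554 and 263 CPM, whereas ID2 was at 212, 212, 238 and 250.3 CPM and ID3 at 718, 694, 1309 and 889 CPM.

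In the WNT list 3 of 8 tested genes rose and 0 fell on day 5, namely the secreted WNT antagonist SFRP1 (179, 909, 596 and 701 CPM), the ligand WNT7A (1.90, 91.4, 48.0 and 65.1 CPM) and the ligand WNT7B (8.59, 32.3, 27.8 and 35.0 CPM). Both WNT7 ligands were under 10 CPM on day 2 and could pass only as rises, and of the 5 genes past the limit on both days 1 rose. Over all genes tested 15.2% rose and 6.86% fell on day 5. The direct WNT target AXIN2 stayed at or under 2.39 CPM. Of 9 Notch genes 3 rose and 2 fell (3 and 1 of the 7 past the limit on both days). The ligand JAG1 was at 68.0, 323, 263 and 289 CPM and the target HES1 at 967, 228, 675 and 458 CPM, below its day 2 level on each later day. DLL1 was at 76.2, 99.3, 90.0 and 91.1 CPM and the receptor NOTCH1 at 122, 124, 119 and 123 CPM, nearly the same on the 4 days.

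The genes that fell most from day 2 to day 5 had varied roles. AQP3, a water and glycerol channel, was at 458, 12.5, 45.5 and 11.5 CPM, 36.7-fold (32.5 to 41.5) lower on day 5. S100A9, a subunit of calprotectin, was at 462, 13.8, 38.3 and 6.43 CPM. NT5E fell from 6430 to 15 summed UMIs between days 2 and 5, from 105 to 0.707 CPM, and stood at 4.31 and 1.41 CPM afterwards. Day 7 was the highest of the later days for all 3 genes. CCL20, which attracts lymphocytes and dendritic cells, went from 56.4 to 0.236 CPM, TNIP3, an inhibitor of NF-κB signalling, from 85.1 to 2.03 CPM, the lactate exporter SLC16A3 from 52.3 to 1.08 CPM and the mucosal keratin KRT4 from 82.6 to 6.55 CPM. LOC101680039 was at 2279, 43.0, 151 and 55.0 CPM. The other named falls were LOC101679224, TMEM229A, EMP1, LOC101675078, LOC101672378, LOC106003392 and GLRX.

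Of 15 S phase genes tested, 12 fell and 0 rose from day 2 to day 5, with a median of -2.36. Of these 15 only 3 were past 10 CPM on both days, of which 1 fell, and the other 12 reached the limit on day 2 alone, so that they could pass the 2-fold limit only as falls. The helicase subunit MCM2 was at 13.2, 0.188, 1.14 and 0.352 CPM, and MCM4 at 31.8, 1.18, 2.72 and 0.440 CPM. The sliding clamp PCNA, which also serves DNA repair, was at 95.4, 139, 105 and 162 CPM and did not fall. Over all genes tested 6.86% fell and 15.2% rose from day 2 to day 5. Among immediate early genes 7 of 18 fell and 0 rose (5 and 0 of the 16 past the limit on both days), with IER3 at 3824, 635, 1088 and 664 CPM and EGR1 at 357, 97.4, 199 and 122 CPM. Among membrane mucins and gastric or urothelial surface genes 5 of 7 fell and 0 rose (2 and 0 of the 4 past the limit on both days), with MUC1 at 221, 37.6, 53.5 and 56.8 CPM. AREG and EREG, ligands of the EGF receptor, were at 247, 56.5, 76.6 and 55.0 CPM and at 135, 53.3, 69.1 and 49.1 CPM.

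Duct genes moved in both directions. Of all genes tested 15.2% were higher and 6.86% lower on day 5 than on day 2. In the study's ductal list 0 of 6 rose and 2 fell on day 5, namely KRT15 (181, 34.2, 65.3 and 43.1 CPM) and ADIRF (1873, 474, 1055 and 399 CPM). In a wider list of duct identity genes 5 of 13 rose and 2 fell, and of the 9 past the limit on both days 2 rose and 1 fell. KRT7 was at 897, 2944, 2409 and 2743 CPM, CFTR, the chloride and bicarbonate channel, at 6.98, 28.9, 19.4 and 26.5 CPM, and SOX9, a transcription factor of ducts and duct progenitors, at 2.80, 15.9, 14.5 and 27.8 CPM. All 3 were higher on each later day than on day 2. EPCAM was at 80.9, 99.7, 93 and 85.9 CPM and CDH1 at 203, 268, 230.3 and 228 CPM, within 2-fold on all days. In the ion and water transport list 1 of 16 rose, CFTR, and 4 fell, among them AQP3, carbonic anhydrase CA2 (24.9, 3.44, 5.96 and 2.91 CPM) and the sodium channel subunit SCNN1A (43.3, 4.29, 5.28 and 8.37 CPM). CFTR was past 10 CPM on day 5 alone and CA2 and SCNN1A on day 2 alone, and of the 13 genes past it on both days 0 rose and 2 fell. In the junction list 2 of 16 rose and 2 fell, the falls being CLDN7 (162, 57.7, 72.3 and 56.8 CPM) and OCLN (29.1, 13.2, 18.1 and 9.69 CPM), both of tight junctions. Counts this near to the shares of all genes do not set the junction list apart.

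For the other lists the shares to compare are the 15.2% of all genes that rose from day 2 to day 5 and the 6.86% that fell. Several of the counts given next lie near these shares and do not set a list apart. In the study's acinar list 0 of 7 genes rose and 5 fell, the enzymes LDHA and ASNS, FKBP4, FKBP11 and NUPR1. Of hypoxia and glycolysis genes 1 of 17 rose and 3 fell, and of basal and squamous genes 2 of 10 rose and 2 fell, the falls being KRT15 and KRT4. Retinoid handling genes gave 2 higher and 0 lower of 9, NF-κB response genes 1 and 3 of 10, genes of amino acid and ER stress 3 and 4 of 17, growth factors and receptors 1 and 3 of 10, and interferon response genes 1 and 0 of 7. Past the limit on both days were 15 hypoxia and glycolysis genes (0 higher, 2 lower), 9 basal and squamous genes (2 and 1), 8 retinoid genes (1 and 0), 9 NF-κB genes (1 and 2), 13 genes of amino acid and ER stress (3 and 2) and 5 interferon genes (1 and 0). S100 genes gave 2 higher and 1 lower of 7 with CPM and 0 and 1 with TMM scaling, the exception among the lists given for this step, whose majority direction was otherwise the same under both. No endocrine, endothelial or multiciliated gene reached 10 CPM in either of these days. Among the 9 genes of the acinar enzyme list that the counts hold, only CLPS, colipase, did so, at 23.2, 148, 121 and 293 CPM. AMY2B, PRSS1, PRSS2, CPA1, CELA2A, CELA3B, CTRC, CTRB1 and PNLIP had no entry under these names in the counts.

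Some genes kept rising or falling in all 3 steps from day 2 to day 9. At a limit of 50 CPM on any day, 79 genes went up and 173 went down in every step, whatever the size of the change. The 10 largest changes in each direction were at least 2-fold between days 2 and 9. Named rises were UPK3BL2, at 42.6, 98.7, 201 and 318 CPM, and 8 loci without a name, among them LOC101692158 at 1.97, 33.0, 55.8 and 73.2 CPM. Among the falls were the serine synthesis enzyme PHGDH, at 50.4, 9.94, 9.54 and 8.63 CPM, the membrane-bending protein BIN1 at 52.0, 17.9, 17.4 and 11.1 CPM, the fatty acid carrier FABP5 at 309, 109, 107 and 79.9 CPM, and FAM107B. Most of the fall of these genes lay between day 2 and day 5. LTB went against this course with 103, 35.4, 331 and 66.1 CPM, and on day 7 stood at 558 CPM in cluster 14 and at 67.6 CPM in cluster 5.

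**Figure D3:**
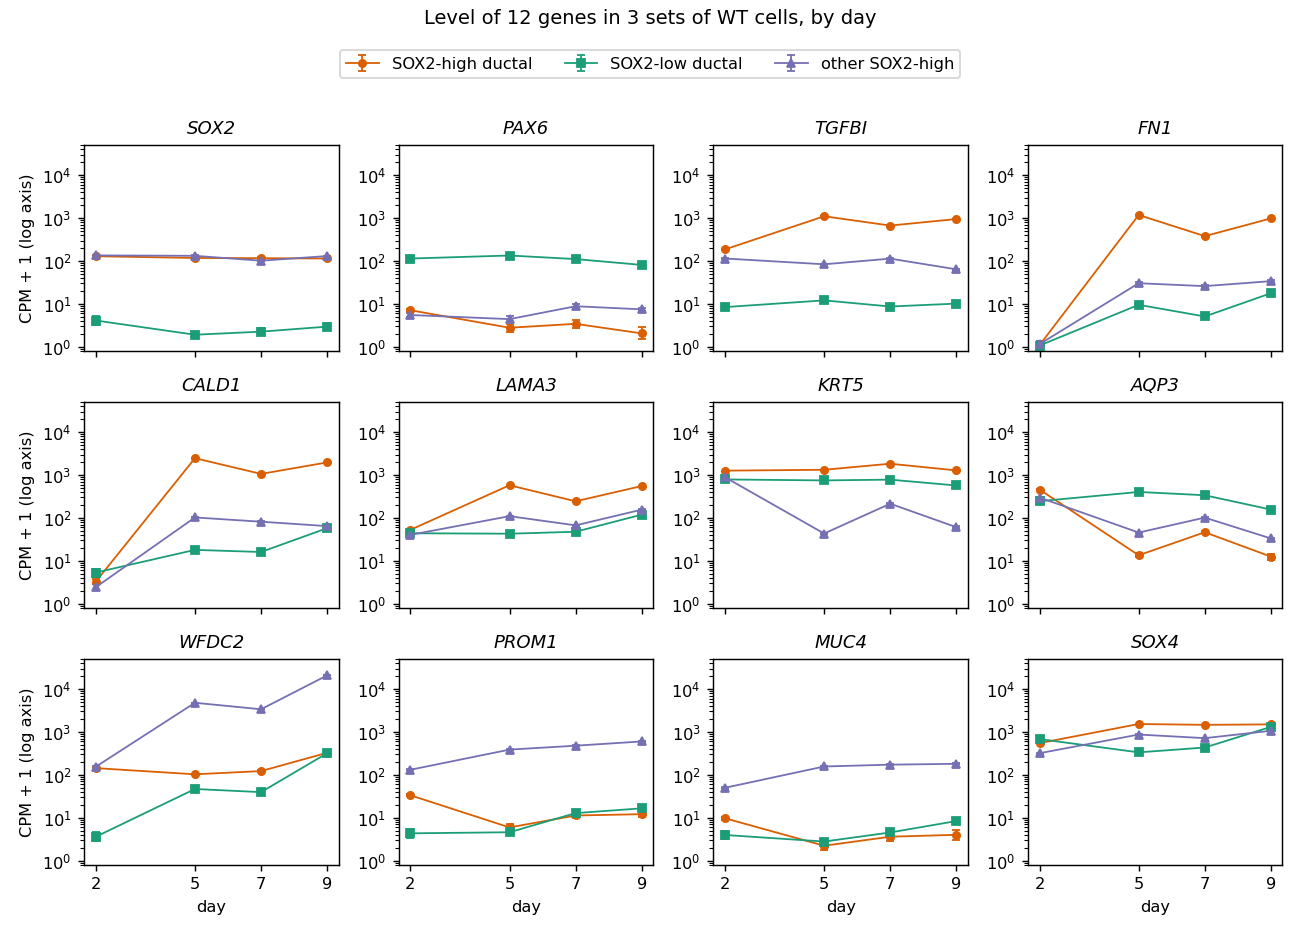
Level of 12 genes (CPM + 1, log axis) on days 2, 5, 7 and 9 in SOX2-high ductal cells (circles), SOX2-low ductal cells (squares) and the other SOX2-high WT cells (triangles), 1 library per day, with exact 95% intervals for counting error that are mostly smaller than the symbols. FN1 and CALD1 rise after day 2 most in the SOX2-high ductal cells, KRT5 stays high there and falls in the other SOX2-high cells, and WFDC2 and PROM1 rise only in the other SOX2-high cells between days 2 and 7 among the 2 SOX2-high sets.

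The second set of ductal cells in the same libraries, the SOX2-low ductal cells, numbered 849, 1571, 1135 and 1306 on days 2, 5, 7 and 9. Against them 728, 1872, 1346 and 1487 genes were at least 2-fold apart, which is 9.27%, 22.3%, 16.4% and 17.8% of those tested. Genes higher in the SOX2-high cells made up 4.09%, 14%, 10% and 9.28% and genes lower in them 5.18%, 8.3%, 6.4% and 8.55%. On all 4 days 4.22% were apart in the same direction, 1.74% higher and 2.47% lower. The 2 sets thus were most alike on day 2, and across 9190 genes the correlation of log2 levels was 0.914 on that day and 0.812 to 0.858 later, where both sets share a library and genes are not independent points. Under TMM scaling the day 5 split was 905 higher and 903 lower in place of 1174 and 698.

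Of the genes of at least 50 CPM, 33 were higher and 63 lower on all 4 days, and 12 of each are named. TGFBI, which also rose with time, was at 186, 1105, 671 and 951 CPM against 7.45, 11.1, 7.72 and 9.18 CPM, 24.9-fold (20.5 to 30.5) higher on day 2 and 104-fold (90.2 to 119) on day 9. RAB34, a small GTPase of cilium assembly and vesicle transport, was at 102, 104, 103 and 91.2 CPM against 1.81, 0.586, 0.772 and 0.624 CPM. Its ratio was 56.5 (38.2 to 87.4) on day 2 and 178 (118 to 281) on day 5. The desmosomal cadherin DSG3 was at 64.0, 53.3, 54.8 and 60.1 CPM against 2.75, 2.01, 1.38 and 2.10 CPM, and peroxiredoxin PRDX2 at 241, 268, 269.6 and 215 CPM against 34.9, 28.0, 25.4 and 30 CPM. RAB34, DSG3 and PRDX2, like SOX2, which is also among the 12, were nearly level over time in the SOX2-high cells. The secreted serine protease HTRA1 rose with time, at 119, 609, 510.0 and 755 CPM against 29.8, 31.0, 31.3 and 35.6 CPM. The others were LOC101686051 (212, 1217, 944 and 1322 CPM against at most 25.9 CPM), PDZK1IP1, PANK4, the cytokine IL18, CCDC88A and LOC101687698. IGFBP3, the main binding protein of insulin-like growth factors, was at 2681, 2605, 5039 and 2644 CPM against 124, 893, 990.0 and 802 CPM.

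Lower in the SOX2-high ductal cells was NRN1, neuritin, at 3.53, 1.79, 2.44 and 1.06 CPM against 273, 265, 242 and 121 CPM, 77.3-fold (67.4 to 89.1) on day 2. CKB, brain-type creatine kinase, was at 2.02, 2.50, 2.10 and 3.17 CPM against 131, 157, 146 and 141 CPM, and guanylin GUCA2A, the ligand that stimulates chloride and bicarbonate secretion, at 42.7, 13.8, 40.1 and 7.93 CPM against 799.8, 909, 724 and 499.7 CPM. The level in the SOX2-low cells exceeded that in the SOX2-high cells on every day for all 3. RHOV, TSPAN15, IQGAP2, SYT16, G0S2, PAX6, LOC101674231, LOC101672987 and LOC123386962 completed the 12 lowest. In cluster 39, NRN1 and CKB were at 123 and 66.4 CPM, beside PAX6.

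Of the list of foregut and pancreas transcription factors 5 of 23, 7 of 25, 7 of 25 and 5 of 25 tested were higher in the SOX2-high cells and 7, 12, 11 and 12 lower on days 2, 5, 7 and 9. These counts hold SOX2, by which the clusters were chosen, and many genes past the limit in 1 set alone. Of those past it in both sets 1 of 13, 2 of 12, 2 of 13 and 0 of 13 were higher and 2, 4, 4 and 5 lower. On all 4 days SOX2, NKX2-1, PAX9 and SIX4 were higher, and FOXA2, GATA3, PAX6, ISL1, NR5A2 and TBX2 lower. NKX2-1, known from lung and thyroid, was at 36.3, 22.9, 25.7 and 18.6 CPM against 1.01, 0.357, 0.650 and 0.891 CPM, and PAX9, of the pharynx and oesophagus, at 18.0, 20.7, 20.0 and 21.7 CPM against 1.30, 1.30, 0.934 and 0.490 CPM. NR5A2, a nuclear receptor of exocrine pancreas, was at 0.650, 0.188, 0.454 and 0.0881 CPM against 55.3, 48.9, 50.7 and 50 CPM. ISL1, an endocrine and neural factor, was at 9.12, 6.26, 6.87 and 6.87 CPM against 41.8, 55.2, 43.1 and 47.8 CPM. GATA3 was at 25.2, 27.4, 34.6 and 31.5 CPM against 103, 109.8, 133 and 119 CPM. For each of these 5 the sets were apart by more than 2-fold on every day.

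The lists of matrix genes separated the ductal sets only after day 2. Of laminins and integrins 0 of 12 tested were higher on day 2 and 1 lower, and 15, 13 and 12 of 18 were higher on days 5, 7 and 9 with 0 lower. Among genes past the limit in both sets these were 10 of 13, 9 of 14 and 8 of 14. Fibroblast and mesenchymal genes gave 0 higher and 1 lower of 3 on day 2, then 7, 6 and 6 higher and 0, 0 and 1 lower of 8, and among those past the limit in both sets 4 of 5, 5 of 7 and 6 of 8 were higher. By day 9 the SOX2-low cells had SPARC of the mesenchymal list too, and SPP1 and CLU from outside that list, though less than the SOX2-high cells. In the SOX2-low cells SPARC was at 1.08, 9.73, 28.6 and 202 CPM, SPP1 at 8.46, 14.3, 21.0 and 216 CPM, and CLU at 163, 196, 353 and 6352 CPM. Basal and squamous genes were higher in 4 of 10, 5 of 10, 8 of 11 and 6 of 10 and lower in 0, 2, 1 and 2. Past the limit in both sets 1 of 6, 2 of 6, 4 of 6 and 3 of 5 were higher and 0, 1, 0 and 1 lower. G2 and M phase genes were lower in 6 of 10, 13 of 14, 4 of 6 and 1 of 1 and higher in 0, with MKI67 at 1.27 and 0.707 CPM against 11.4 and 16.9 CPM on days 2 and 5. S phase genes were lower in 0 of 15, 11 of 15, 8 of 12 and 0 of 4 and higher in 1, 0, 0 and 2. At most 1 G2 and M phase gene a day was past the limit in both sets, and 0 of the 3 such S phase genes was lower on day 5, so the limit set most of these directions. Immediate early genes were lower in 4 of 18, 12 of 16, 7 of 17 and 10 of 18 and higher in 1, 1, 0 and 0 (lower in 4 of 17, 12 of 16, 6 of 15 and 9 of 16 past the limit in both sets). Interferon response genes were lower in 10 of 11 on day 2, with ISG15 at 10.2 against 139 CPM (4 of 5 past the limit in both sets), in 1 of 8 on each of days 5 and 7, where 1 was also higher, and in 3 of 11 on day 9 with 0 higher. On these 3 days 0 of 5, 0 of 6 and 0 of 7 past the limit in both sets were lower. Secretory and mucous genes were higher in 2 of 3, 1 of 4, 1 of 7 and 0 of 10 on days 2, 5, 7 and 9 and lower in 0, 2, 5 and 9. Past the limit in both sets 0 of 1, 1 of 2, 1 of 2 and 0 of 3 were higher and 0, 0, 0 and 2 lower. TFF2 was at 12.8 against 993 CPM and TFF3 at 6.96 against 433 CPM on day 9.

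The other WT cells with high SOX2 belonged to classes other than ductal and numbered 1729, 1875, 2143 and 3060 on the 4 days. On day 2 the SOX2-high ductal cells differed little from them, with 286 genes (3.71%) at least 2-fold apart and a correlation of 0.964. Later 2163, 1719 and 2304 genes (25.9%, 21.1% and 27.7%) were apart and the correlations were 0.801, 0.855 and 0.793. The SOX2-high ductal cells of days 5 and 7, by contrast, correlated at 0.985 with each other and those of days 7 and 9 at 0.981. Under TMM scaling the later splits were 884 higher and 1197 lower, 667 and 1005, and 883 and 1397, in place of 1362 and 801, 1035 and 684, and 1348 and 956. Genes higher in the SOX2-high ductal cells made up 0.143%, 16.3%, 12.7% and 16.2% on the 4 days, and genes lower in them 3.57%, 9.6%, 8.39% and 11.5%. On all 4 days 1.19% were apart, 0.125% higher and 1.07% lower.

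On day 2 cell cycle genes were among those lower. On that day 275 genes were lower in the SOX2-high ductal cells and 11 higher. All 20 G2 and M phase genes tested were lower, with a median of -3.74 against -0.02 over all genes, as were 10 of 19 S phase genes and the 5 genes by which the study named proliferating cells. Only 1 of the 20 G2 and M phase genes and 0 of those 5 were past 10 CPM in both sets, against 15 of the S phase genes, of which 8 were lower. The other SOX2-high cells include clusters 25 and 28 of the class proliferating acinar, with 381 and 282 cells over all days. The study named that class in part by cell cycle genes, so the direction of these genes follows in part from the classes compared. Membrane mucins and surface genes were lower in 7 of 12 on day 2 too, and in 2 of the 6 past the limit in both sets. Also lower were LYPD2, UPK1A, ENPP3, PROM1 and DUOXA2, given below. MKI67 was at 1.27 against 75.6 CPM and TOP2A, topoisomerase II, at 4.49 against 125 CPM. On days 5, 7 and 9 MKI67 was at or below 0.707 against 1.85 CPM in the 2 sets, so hardly detected in either. On those days S phase genes were higher in 3 of 3, 3 of 4 and 3 of 3 and lower in 0, with PCNA at 139, 105 and 162 CPM against 53.7, 50.5 and 51.8 CPM.

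Only 3 genes of at least 50 CPM were at least 2-fold higher than in the other SOX2-high cells on all 4 days. These were LOC101686051 (212, 1217, 944 and 1322 against 105, 39.6, 88.8 and 45.3 CPM), the Notch ligand DLL1 (76.2, 99.3, 90.0 and 91.1 against 37.1, 9.18, 17.4 and 10.7 CPM) and ID3 (718, 694, 1309 and 889 against 326, 307, 557 and 238 CPM). DLL1 was 2.05-fold (1.93 to 2.18) higher on day 2 and 10.8-fold (9.60 to 12.2) on day 5. The Notch ligand JAG2 behaved alike after day 2, at 54.1, 46.3 and 50.8 against 3.31, 6.40 and 3.53 CPM. KRT5 was at 1.42 times (1.41 to 1.44) the level of the other SOX2-high cells on day 2 and 31.3-fold (29.7 to 33.1), 8.58-fold (8.37 to 8.80) and 21.4-fold (20.5 to 22.3) higher on days 5, 7 and 9, since it fell in the other SOX2-high cells (888, 42.3, 214 and 59.9 CPM) and not in the ductal ones. The study's ductal markers were higher in 0, 5, 5 and 4 of 6 on the 4 days and lower in 0. The study named the ductal class by these 6 genes, KRT5 among them, so their direction follows in part from the classes compared. The wider list of duct identity genes did not share this direction. On the 4 days 0 of 10, 2 of 13, 1 of 13 and 2 of 13 of its genes were higher and 1, 5, 3 and 5 lower. Past the limit in both sets 0 of 10, 1 of 11, 1 of 12 and 1 of 11 were higher and 1, 4, 3 and 4 lower.

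The 10 named among the 27 genes lower on all 4 days were LYPD2, LOC101676065, CXCL17, UPK1A, LOC101679224, LOC106003392, ENPP3, PROM1, DUOXA2 and CUNH15orf48. LYPD2, a membrane-anchored protein of the Ly6 family, was at 8.99, 6.08, 10.5 and 12.8 against 97.9, 800.3, 1179.7 and 1348 CPM, 10.9-fold (9.96 to 11.9) on day 2 and 132-fold (111 to 158) on day 5. UPK1A, a uroplakin of bladder umbrella cells, was at 2.00, 3.91, 3.86 and 3.35 against 52.2, 285, 205 and 212 CPM. PROM1 was at 32.4, 4.95, 10.3 and 11.1 against 130.2, 386, 477 and 599 CPM. DUOXA2, which matures the hydrogen peroxide-forming oxidase DUOX2, was at 9.03, 1.27, 4.88 and 1.32 against 90.4, 115, 141 and 63.6 CPM. In each of these the other SOX2-high cells lay above the ductal ones on every day, by most after day 2.

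Secretory and mucous genes were lower in the SOX2-high ductal cells in 1 of 4 on day 2 and in 9 of 9, 8 of 8 and 11 of 11 on days 5, 7 and 9, with TFF3, a trefoil peptide, at 0.942, 2.95 and 6.96 against 51.2, 237 and 435 CPM. The study's centroacinar progenitor list was lower in 4 of 8 and then 11 of 11 on each later day, and membrane mucins and gastric or urothelial surface genes in 7, 10, 10 and 10 of 12, with 1 surface gene higher on day 9. Few of these genes were past the limit in both sets on days 5, 7 and 9: 2 of 2, 2 of 2 and 3 of 3 such secretory genes were lower, 4 of 4, 6 of 6 and 5 of 5 of the progenitor list, and 2 of 4, 4 of 6 and 4 of 6 of the surface genes. MUC1 was at 221, 37.6, 53.5 and 56.8 against 763, 1644, 1365 and 1754 CPM and MUC4 at 8.72, 1.22, 2.61 and 3.00 against 48.8, 155, 172 and 179.6 CPM. Laminins and integrins were higher in 0 of 13 on day 2 and in 17, 16 and 17 of 18 later, fibroblast and mesenchymal genes in 0 of 3 and then 7 of 8 on each later day, and basal and squamous genes in 0, 8, 6 and 8 of 10, with 0, 1, 1 and 2 lower. Of laminins and integrins past the limit in both sets 12 of 13, 11 of 13 and 12 of 13 were higher, of fibroblast and mesenchymal genes 5 of 6, 7 of 8 and 6 of 7, and of basal and squamous genes 7 of 8, 6 of 10 and 7 of 8. FN1 was at 1185, 379 and 984 against 29.4, 25 and 33 CPM on days 5, 7 and 9. Several of the lists that were lower here are those by which the other classes were named in the study, so their direction follows in part from the classes compared.

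**Figure D4:**
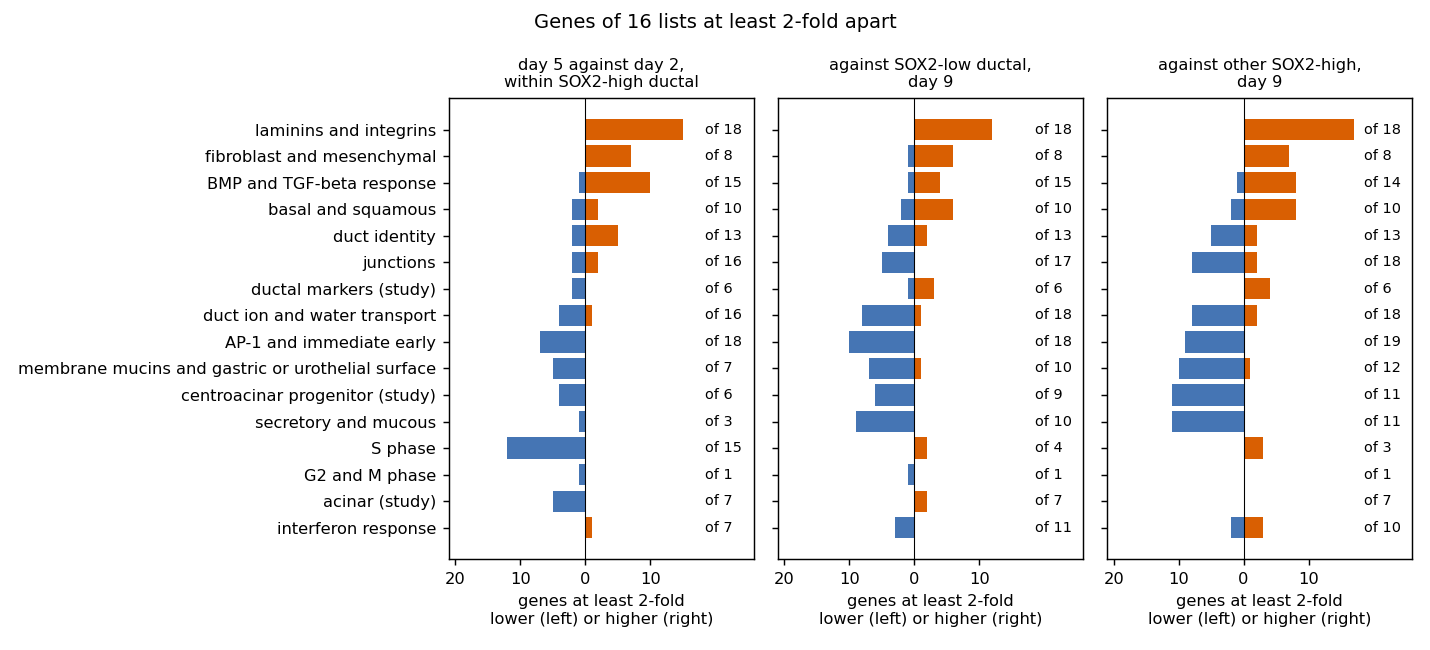
Number of genes at least 2-fold lower (left, blue) or higher (right, orange) in the SOX2-high ductal cells for 16 lists, with the number of genes tested at the right: day 5 against day 2, and on day 9 against SOX2-low ductal cells and against the other SOX2-high cells. Laminins and integrins are 15 of 18, 12 of 18 and 17 of 18 higher with none lower, and S phase genes are 12 of 15 lower on day 5, 11 of these past 10 CPM on day 2 alone.

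Against all other WT cells of the same day combined, 283, 1823, 1434 and 1897 genes (3.65%, 21.6%, 17.5% and 22.7%) were at least 2-fold apart, 0.232%, 12.5%, 9.87% and 12% higher and 3.42%, 9.11%, 7.63% and 10.7% lower. On all 4 days 1.52% were apart, 0.137% higher and 1.39% lower. The split under TMM scaling was 781 higher and 969 lower on day 5, 574 and 763 on day 7 and 731 and 1149 on day 9, in place of 1054 and 769, 809 and 625, and 1005 and 892. Since the other cells mix SOX2-low and SOX2-high cells in proportions that changed with the day, SOX2 itself was at most 1.06 higher on the log2 scale in this comparison.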

How the data were processed

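Droplet single-cell RNA-seq was analysed from 4 WT libraries, 1 per day. The authors counted UMIs with Cell Ranger 5.0.1, removed doublets with DoubletFinder, clustered WT and CF cells separately in Seurat without batch correction and named the clusters. Deposited values used were the UMI counts per gene and cell, not normalized, the authors' clusters and classes, and the percent of mitochondrial UMIs in each cell as the authors computed it. Counts were summed per set of cells and day and scaled to CPM, and differences are log2 with 1 CPM added, over genes of at least 10 CPM in either set. Intervals are exact at 95% (Poisson, Clopper-Pearson or conditional binomial) and cover counting error only. No test was made, because each group was 1 library. For shares of cells with a UMI, cells were thinned to 3000 UMIs and shallower cells left out. The calculation was tested on simulated data. Named genes were the 12 against SOX2-low ductal cells and the 10 against other SOX2-high cells with the largest mean difference in each direction among those of at least 50 CPM and at least 2-fold apart on all 4 days, the 10 that rose or fell in every step, the 5 leading genes of each cluster, and members of 34 gene lists. Some genes that these rules name are not reported here. The cells, lists and rules were chosen with earlier results of these data known. Alternatives were TMM (edgeR 4.0.16) and DESeq2 1.42.0 scaling, other limits and cell filters. Python 3.11.15, numpy 2.4.6, pandas 2.3.3 and scipy 1.17.1 were used.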

Additional observations from a re-analysis of the deposited data

How the results depend on the processing

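Each count of genes at least 2-fold apart was recomputed under 8 alternatives. Of 128 such counts 116 were within 1.5 times the value given. With genes from 1 CPM upwards, 1348, 2897, 2243 and 2341 genes were apart from SOX2-low ductal cells on days 2, 5, 7 and 9, 435 from the other SOX2-high cells on day 2, and 510, 2800 and 2223 from all other WT cells on days 2, 5 and 7. The same limit gave 184 genes between days 5 and 7 and 270 between days 7 and 9, where adding 5 CPM before the logarithm gave 59 and 96. With at most 10% mitochondrial UMIs and at least 3000 UMIs per cell, SOX2-high ductal cells were 55.0%, 48.7% and 27.9% of the WT cells on days 2, 7 and 9, and without the shallow clusters 20 and 35 they were 27.0%, 24.3% and 13.2% on days 5, 7 and 9. The causes of these changes were not tested, apart from the larger number of genes that the lower limit admits. For the genes named by size of difference, 87 values kept their direction and stayed at least 2-fold in all 609 recomputations. In the comparisons between sets these values were means over the 4 days. Whether such a gene stayed 2-fold apart on each single day was not recomputed. Leading genes of clusters and other members of lists were not recomputed singly. Each day has 1 library, and the sets of cells compared within a day come from that same library. No analysis paired by library over the 4 days was made. Depth limits the genes near 0, such as FN1 on day 2, to the intervals given.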
